A study of Mus musculus with 31 samples.

Results

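The voltage-gated potassium channel genes were taken as all mouse genes whose symbols begin with Kcna, Kcnb, Kcnc, Kcnd, Kcnf, Kcng, Kcnh, Kcnq, Kcns or Kcnv followed by a number. The RefSeq accessions on the array named 42 such symbols, of which 40 are protein-coding channel subunits and 2, Kcnd3os and Kcnq1ot1, are long non-coding RNAs that were kept out of the counts. Of the 40 channel genes, 38 passed the detection filter, with a probe well above background on 3 or more arrays in some group, and were counted as measured, among 30164 features in the series, 17896 of them with a gene symbol. The other 2, among them Kcnv2, which was well above background on 2 of all 31 arrays, were not tested. Each gene is represented by its brightest probe, and levels are log2 of the processed spot intensity minus the 75th percentile of the array, so that 1 unit is a doubling and 0 is the brightness of a spot at that percentile. Different probes bind with different strength, so levels are compared between samples and never between genes.

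Voltage-gated potassium channels are tetramers that open when the membrane depolarises and let potassium leave the cell, which ends action potentials and sets how often a neuron can fire. Kcna, Kcnb, Kcnc and Kcnd subunits form the Kv channels proper: Kcna channels set the firing threshold at the axon, Kcnb channels carry delayed rectifier current in the soma and dendrites, Kcnc channels allow fast firing and Kcnd channels carry transient A-type current in dendrites. Kcnf, Kcng, Kcns and Kcnv subunits form no working channel of their own and modify Kcnb channels, and they are called electrically silent. Kcnq channels carry the M-current that muscarinic receptors shut off, and Kcnh channels comprise the EAG, ERG and ELK branches. In the medium spiny neurons of the striatum, to which the nucleus accumbens belongs, potassium currents hold the cell at a negative resting potential, whereas the cortex holds mainly pyramidal cells.

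Gene expression was measured on 31 arrays of 1 colour in female mice of the inbred strains C57BL/6J (C57) and DBA2/J (DBA), in the medial prefrontal cortex (mPFC, written mpFC in the labels) and the nucleus accumbens (NAc), after repeated cross-fostering (RCF) or a control procedure. In RCF, the litter was passed to a different dam every day from postnatal day 1 to postnatal day 4, so that pups met 4 adoptive mothers. Control litters were lifted daily and put back in the home cage. Mice of all groups were weaned at postnatal day 28 and were 12 weeks old at sampling by the sample labels, which elsewhere give 9 to 12 weeks. No cage or litter gave more than 2 animals, and the labels do not say whether the cortex and accumbens samples came from the same mice. The series title names the gene Xlr4 and vulnerability to cocaine, and the comparisons made here are between tissues, between strains, and between RCF and control.

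Several features of the arrays bear on every value. Of the 31 scanner files, 29 were listed with another sample than the deposited normalized column that they matched best, 27 of them with a sample of another group, and each file was given the sample of its matching column. This choice decides the results: with the files as listed, 0 channel genes differed between tissues and 18 with RCF, where 0% and 48.6% of all features passed. In 4 pairs, arrays of the same group differed by hardly more than repeat spots on an array, and each such pair was averaged, which left 27 samples: 7 C57 mPFC (3 control, 4 RCF), 6 C57 NAc (2 and 4), 6 DBA mPFC (3 and 3) and 8 DBA NAc (4 and 4). The labels do not say which samples came from separate litters, so p-values measure the spread between these samples only. In 6 samples the tissue, strain or sex markers lay with another group: C57 mPFC control 3 and RCF 1 had striatal marker levels and C57 NAc RCF 1 and the averaged NAc controls 1 and 3 had cortical ones, while DBA mPFC control 1 and DBA NAc control 4 had C57 marker levels. In DBA mPFC control 1, Xist, which is made from the inactive X chromosome of females, was at a log2 level of -5.87. These 6 samples are called samples in doubt, they stayed in their labelled groups, and results that rest on them are also given without them. Each combination of strain and tissue was hybridised on a slide of its own with control and RCF together, so slide cannot be told apart from strain and tissue. Between 58.6% and 81.9% of probes were well above background on an array, with DBA mPFC arrays at 73.6% to 81.9% and C57 NAc arrays at 58.6% to 69.7%.

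The question of how the channel genes differ between accumbens and cortex was addressed first. Averaged over strain and treatment, 25 of the 38 channel genes differed between tissues (limma, adjusted p under 0.05), 22 lower and 3 higher in NAc. The genes that were lower included 6 of 9 silent subunit genes, among them Kcns1 and Kcnv1, and the ERG channel Kcnh7, and the genes that were higher were Kcnh8, Kcna5 and Kcnh2. Among all features 51.2% passed the same test, 34.8% lower and 16.4% higher, against 65.8% of the channel genes, and this is a description with no test. The median difference was -0.38 over the channel genes and -0.11 over all features. With quantile normalization in place of the percentile, the split was 18 lower and 6 higher, and 50.3% of all features passed. In the same contrast 18 of 21 striatal projection neuron markers were higher in NAc (median 1.71) and 15 of 16 cortical excitatory neuron markers lower (median -3.31). The mean of these lists in a sample ran from 0.915 to 4.35 (striatal) and from -3.43 to 1.11 (cortical) in NAc, and from 0.495 to 4.20 and from -0.829 to 1.63 in mPFC, with the overlap coming from the samples in doubt. Among other cell types, 8 of 12 oligodendrocyte markers were higher and 1 lower, 5 of 14 interneuron markers were higher and 5 lower, 5 of 8 microglia and 2 of 7 endothelial markers were lower, 1 of 8 astrocyte markers was higher, and 2 of 5 choroid plexus markers were higher and 1 lower. In tissue RNA, fewer cells of a type and less RNA per cell cannot be told apart, and the part of these cell types in the channel differences was not tested.

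By their brightest probes Kcns1 and Kcnh7 were lower and Kcna5 and Kcnh8 higher in NAc. The other Kcna5 probe was lower in NAc and Kcnh8 was dim, as given below. These are 4 of the genes with large tissue differences, and their promoters are shown. Each runs 5′ to 3′ on the strand of the gene from 250 bases before to 50 bases after the RefSeq start (build GRCm38.p6), and the capitals mark every GC box (GGGCGG) and every E-box of the form CAGNTG, on either strand. The Kcns1 promoter lies at chr2:164171064-164171363 on the minus strand, that of Kcnh7 at chr2:63184238-63184537 on the minus strand, that of Kcna5 at chr6:126535506-126535805 on the minus strand and that of Kcnh8 at chr17:52602459-52602758 on the plus strand.
Kcns1: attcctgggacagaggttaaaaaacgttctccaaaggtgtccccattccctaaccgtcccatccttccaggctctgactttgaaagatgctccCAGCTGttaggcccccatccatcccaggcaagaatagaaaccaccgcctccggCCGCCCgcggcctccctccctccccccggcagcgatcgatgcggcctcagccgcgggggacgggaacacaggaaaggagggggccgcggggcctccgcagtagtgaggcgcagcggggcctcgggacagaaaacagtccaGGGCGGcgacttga
Kcnh7: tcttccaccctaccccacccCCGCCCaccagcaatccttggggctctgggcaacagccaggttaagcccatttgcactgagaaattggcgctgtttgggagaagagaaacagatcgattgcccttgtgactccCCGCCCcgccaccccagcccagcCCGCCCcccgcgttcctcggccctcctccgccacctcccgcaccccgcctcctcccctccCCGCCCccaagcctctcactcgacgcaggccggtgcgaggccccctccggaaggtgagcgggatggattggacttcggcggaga
Kcna5: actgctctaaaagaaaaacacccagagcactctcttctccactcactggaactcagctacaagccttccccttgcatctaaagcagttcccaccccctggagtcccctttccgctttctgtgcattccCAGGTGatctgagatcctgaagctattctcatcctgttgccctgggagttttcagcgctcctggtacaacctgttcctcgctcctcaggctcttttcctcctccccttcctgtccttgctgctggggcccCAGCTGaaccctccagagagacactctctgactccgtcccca
Kcnh8: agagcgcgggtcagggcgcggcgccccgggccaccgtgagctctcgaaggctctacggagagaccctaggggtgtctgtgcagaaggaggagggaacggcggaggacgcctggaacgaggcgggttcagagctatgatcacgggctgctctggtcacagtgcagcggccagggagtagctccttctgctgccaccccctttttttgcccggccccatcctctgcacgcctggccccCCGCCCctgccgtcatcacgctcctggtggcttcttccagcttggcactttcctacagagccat
The Kcnh7 window held 4 GC boxes and no E-box, with 67.7% G and C. The Kcns1 window held 2 GC boxes and 1 E-box (64.0% G and C), and the Kcnh8 window 1 GC box and no E-box (66.0%). The Kcna5 window held no GC box and 2 E-boxes and had 55.0% G and C. Over all 32817 promoters of the table, 35.6% held a GC box, 51.4% held this E-box, and the median was 52.7% G and C. The table held promoters for 25 of the 38 channel genes, with 30 windows, of which 18 held a GC box and 14 the E-box. Neither a full cAMP response element (TGACGTCA, in 1.79% of all promoters) nor TATAAA (in 13.6%) was found in any of the 30. The marked motifs do not overlap each other, and a match describes letters in this window, not a site in use.

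Among the silent subunits, Kcns1, which modifies Kcnb channels, had the most negative tissue difference among the channel genes in DBA. In DBA mPFC its level was -1.39 (averaged controls 2 and 4), -1.38 (control 3) and -1.21 (control 1, in doubt) in controls, and -1.22 (averaged RCF 1 and 3), -1.87 and -1.58 after RCF. In DBA NAc the controls were at -5.62, -4.53, -4.66 and -3.60 (the last in doubt) and the RCF samples at -4.75, -3.96, -5.88 and -4.35. All 8 accumbens samples were below all 6 cortex samples, with the lowest values in NAc control 1 and RCF 3. In C57, the level ran from -3.94 through a median of -3.02 to -2.03 in mPFC and from -4.45 through -3.58 to -1.49 in NAc, and the tissues overlapped, with the upper NAc values in the samples in doubt. The difference was -1.71 ± 0.31 (SE) averaged over strains (adjusted p = 0.000128), and -2.36 without the samples in doubt.

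Kcnv1, the silent Kv8.1 subunit, was also lower in NAc. Its level in DBA ran from 2.33 through a median of 2.64 to 2.93 in mPFC and from -1.26 through 0.50 to 1.82 in NAc, with no overlap. In C57 it ran from 1.25 through 2.29 to 2.66 in mPFC and from -0.08 through 0.77 to 2.77 in NAc, with overlap. The difference was -1.71 ± 0.32 (adjusted p = 0.000181). Kcnf1, another silent subunit, was at 1.14 to 2.08 in DBA mPFC (median 1.39) and at -0.78 to 1.25 in DBA NAc (median -0.50), which overlap at 1 end. In C57 Kcnf1 was at 0.42 to 2.42 in mPFC (median 1.74) and 0.06 to 1.98 in NAc (median 0.48). The Kcnf1 difference was -1.12 ± 0.27 (adjusted p = 0.00157), and its other probe gave -1.16. Kcng2 (-0.87), Kcng1 (-0.50) and Kcns2 (-0.32) were the other silent subunit genes that were lower. Kcns3 (-0.10), Kcng3 (0.06) and Kcng4 (-0.16) did not pass the test. Thus 6 of 9 silent subunit genes were lower and none was higher, where 34.8% of all features were lower and 16.4% higher.

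**Figure D1:**
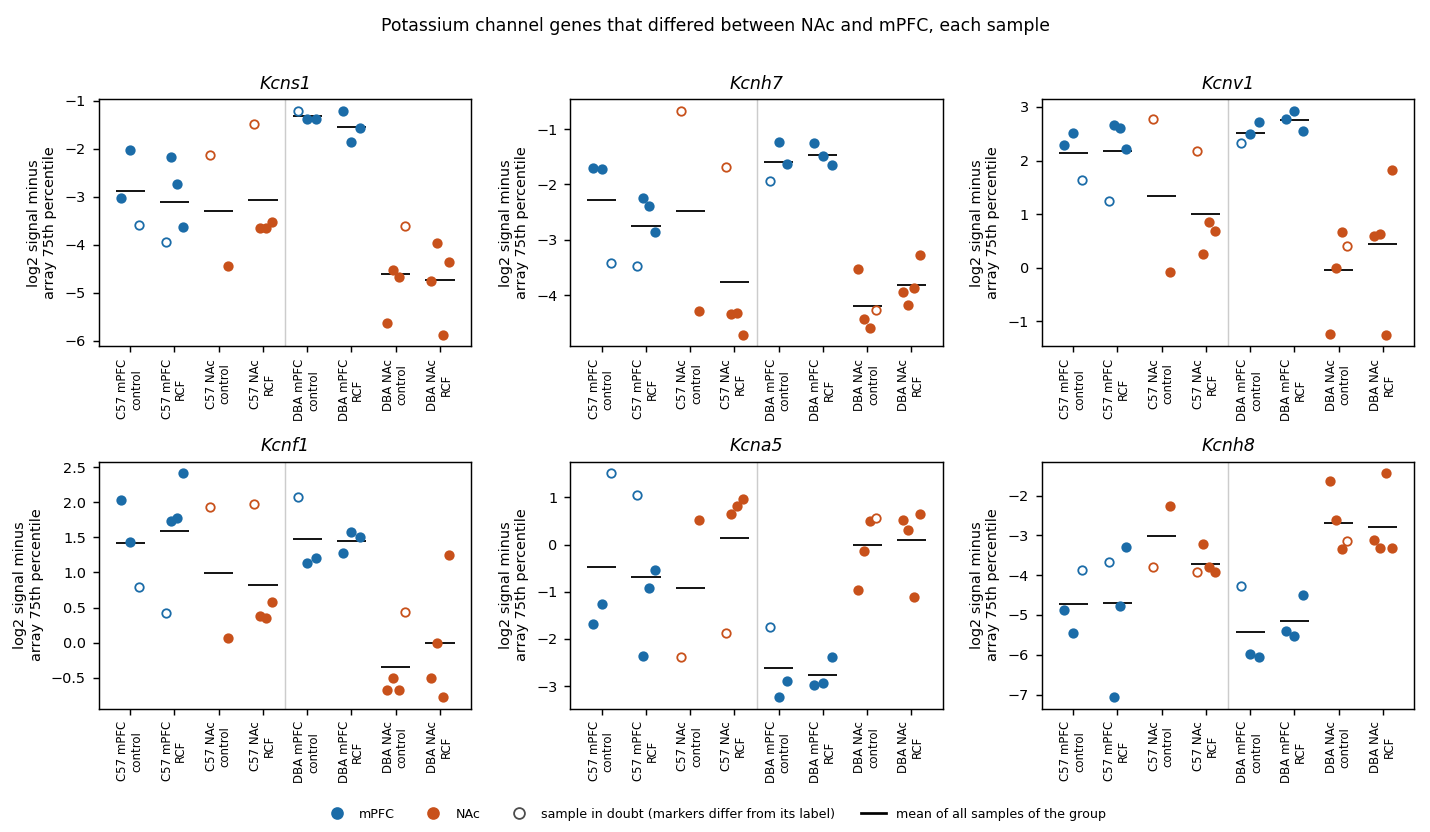
Log2 level (processed intensity over the array's 75th percentile) of Kcns1, Kcnh7, Kcnv1, Kcnf1, Kcna5 and Kcnh8 in each of the 27 samples by group, where circles are samples, open circles the samples in doubt and bars the group means. In DBA the NAc samples of Kcns1 (-5.88 to -3.60) all lie under the mPFC samples (-1.87 to -1.21), whereas in C57 the open circles lie towards the other tissue.

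The Kcnh genes went both ways. Kcnh7, a channel of the ERG branch, was at -1.23 (averaged controls 2 and 4), -1.64 and -1.94 (in doubt) in DBA mPFC controls and at -1.26 (averaged RCF 1 and 3), -1.49 and -1.65 after RCF. In DBA NAc it was at -3.53, -4.42, -4.59 and -4.27 (in doubt) in controls and at -3.95, -4.17, -3.86 and -3.28 after RCF, so the tissues did not overlap. In C57 mPFC Kcnh7 was at -1.70, -1.73 and -3.41 (in doubt) in controls and at -3.48 (in doubt), -2.25, -2.39 and -2.85 after RCF. In C57 NAc it was at -0.67 (averaged controls 1 and 3, in doubt) and -4.29 in controls and at -1.68 (in doubt), -4.33, -4.32 and -4.72 after RCF. With the samples in doubt the C57 tissues overlapped, and without them every C57 NAc sample was below every C57 mPFC sample. The averaged difference was -1.54 ± 0.34 (adjusted p = 0.000852) and moved to -2.40 ± 0.16 without the samples in doubt.

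Kcnh3, the ELK2 channel of forebrain neurons, was at 4.53 to 5.17 in DBA mPFC (median 4.93) and 1.66 to 4.18 in DBA NAc (median 3.78), with no overlap. In C57 it was at 4.38 to 5.12 in mPFC (median 4.84) and at 3.63 to 4.98 in NAc (median 3.96), and the averaged difference was -1.07 ± 0.25 (adjusted p = 0.00139). Kcnh5, of the EAG branch, was at -0.63 to -0.01 in DBA mPFC (median -0.22) and -1.87 to -0.74 in DBA NAc (median -1.13), again apart. In C57 it was at -0.12 to 0.59 in mPFC (median 0.21) and at -0.78 to 0.50 in NAc (median -0.50), and the averaged difference was -0.74 ± 0.14 (adjusted p = 0.000244). Kcnh4, of the ELK branch, was lower as well (-0.44).

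Kcnh8, the third gene of the ELK branch, was higher in NAc. In DBA it was at -6.05 to -4.27 in mPFC (median -5.46) and at -3.35 to -1.43 in NAc (median -3.13), and in C57 at -7.07 to -3.28 in mPFC (median -4.77) and at -3.93 to -2.25 in NAc (median -3.80). The DBA tissues did not overlap and the C57 tissues did. The difference was 1.95 ± 0.36 (adjusted p = 0.000153), and the other probe of the gene gave 0.99 (adjusted p = 0.00234). Kcnh8 was dim: the probe was well above background on 2 of 3 C57 mPFC control arrays, 2 of 4 DBA mPFC control arrays and 3 of 4 C57 mPFC RCF arrays. Kcnh2, the ERG1 channel that also repolarises the heart, was higher by 0.34. Kcnh1 (-0.33) and Kcnh6 (0.29) did not pass, which makes 4 lower, 2 higher and 2 not called among 8 Kcnh genes. Among all features 34.8% were lower and 16.4% higher. With all samples, the tissue differences of Kcnh1, Kcnh2, Kcnh4 and Kcnh7 depended on strain, as given below.

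Among the Kcna genes, Kcna2, an axonal delayed rectifier subunit, was lower in NAc. It was at 0.89 to 1.76 in DBA mPFC (median 1.57) and 0.03 to 0.77 in DBA NAc (median 0.40), with no overlap, and at -0.24 to 1.02 in C57 mPFC (median 0.48) and -0.34 to 0.23 in C57 NAc (median -0.16). The difference of -0.75 ± 0.11 had the smallest adjusted p of the channel genes (1.76e-05). A second Kcna2 probe gave -0.12 (adjusted p = 0.57), so the probes of this gene disagree.

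Kcna7 was lower by 0.49 (log2 difference -0.49 ± 0.11, adjusted p = 0.000873), with 1.04 to 1.45 in DBA mPFC (median 1.20) against -0.33 to 0.44 in DBA NAc (median 0.20) and medians of 1.30 and 1.24 in C57 mPFC and NAc. Kcna10 is in the count of lower genes, but its probe was well above background on 0 of 4 arrays in both DBA NAc groups and on 1 of 4 in C57 NAc RCF, so its fitted difference is not given as a size. Kcna5, the Kv1.5 subunit known from heart and smooth muscle, was higher in NAc: its difference was 1.46 ± 0.43 with all samples and 2.45 without those in doubt. In DBA it was at -3.24 to -1.75 in mPFC (median -2.91) and -1.11 to 0.65 in NAc (median 0.40), with no overlap. The other Kcna5 probe gave -0.37 ± 0.13 (adjusted p = 0.0235) and, without the samples in doubt, -0.17 (adjusted p = 0.294), so the rise is that of 1 probe. Kcna1 (-0.18), Kcna3 (-0.10), Kcna4 (0.25) and Kcna6 (-0.27) were not called.

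Kcnc4, Kcnc1 and Kcnc2 were lower in NAc. Kcnc4, which makes a fast inactivating current, was at 2.10 to 2.59 in DBA mPFC (median 2.45) and 0.51 to 2.00 in DBA NAc (median 0.95), apart, and at 1.01 to 2.21 in C57 mPFC (median 1.76) and 0.33 to 2.09 in C57 NAc (median 1.18). Its difference was -0.88 ± 0.19 (adjusted p = 0.000587). Kcnc1, the Kv3.1 subunit of fast-spiking interneurons, was at 1.79 to 2.40 in DBA mPFC (median 2.12) and 1.25 to 2.28 in DBA NAc (median 1.54), with overlap. In C57 Kcnc1 was at 1.99 to 2.45 in mPFC (median 2.10) and 1.42 to 2.39 in NAc (median 1.69), and its difference was -0.42 ± 0.10 (adjusted p = 0.00184), against 0.24 and 0.13 for its other probes and -0.02 (adjusted p = 0.86) for their mean. Kcnc2, also of fast-spiking cells, was lower by 0.43 (log2 difference -0.43).

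Kcnq3, Kcnq5 and Kcnq1 were lower. Kcnq3, a subunit of the M-channel, was at -1.36 to -0.98 in DBA mPFC (median -1.22) and -2.44 to -1.40 in DBA NAc (median -1.96), apart, and at medians of -1.76 and -1.96 in C57 mPFC and NAc, with a difference of -0.43 ± 0.12 (adjusted p = 0.00641). Kcnq5, another M-channel subunit, by -0.50 and Kcnq1, best known from the heart, by -0.66. Of the 3 Kcnd genes, Kcnd1 was lower (-0.32). The delayed rectifier subunit Kcnb2 (-0.25), the A-type subunit Kcnd2 (0.14) and Kcnd3 (-0.11) were not called, although another Kcnd3 probe gave 0.77 (adjusted p = 0.000127).

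Within DBA alone, 24 of 38 channel genes differed between tissues, 21 lower and 3 higher (56.6% of all features passed, 37.2% lower and 19.4% higher). In 14 of them the 6 mPFC and 8 NAc samples did not overlap: Kcna5, Kcnh2 and Kcnh8 were higher, and Kcna2, Kcna7, Kcnc4, Kcnd1, Kcng2, Kcnh3, Kcnh5, Kcnh7, Kcnq3, Kcns1 and Kcnv1 lower. Among all features 30.7% did not overlap, 6.99% higher and 23.7% lower. Within C57 with all samples, Kcna2 alone was called (-0.52 ± 0.16, adjusted p = 0.0454), against 10.1% of all features (3.74% higher and 6.33% lower). The authors' own normalized values hold 32 of the channel genes. With them no channel gene was called as lower in C57 NAc and 1 was called as higher, against 12.3% of all features called. Without the samples in doubt, 17 channel genes were called in C57, 15 lower and 2 higher (25.5% of all features), and the same 24 as before in DBA (56.7%). Of these, 13 were called in both strains and all 13 in the same direction, which is 76.5% of the C57 genes and 54.2% of the DBA genes. The overlap between strains was not counted over all features, so it is not read as particular to channel genes. The C57 samples left out were those whose tissue markers, on these same arrays, lay with the other tissue. Without the samples in doubt the C57 values were -2.27 for Kcnh7, -2.19 for Kcnv1, -1.61 for Kcnf1, 2.15 for Kcnh8 and 2.04 for Kcna5.

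**Figure D2:**
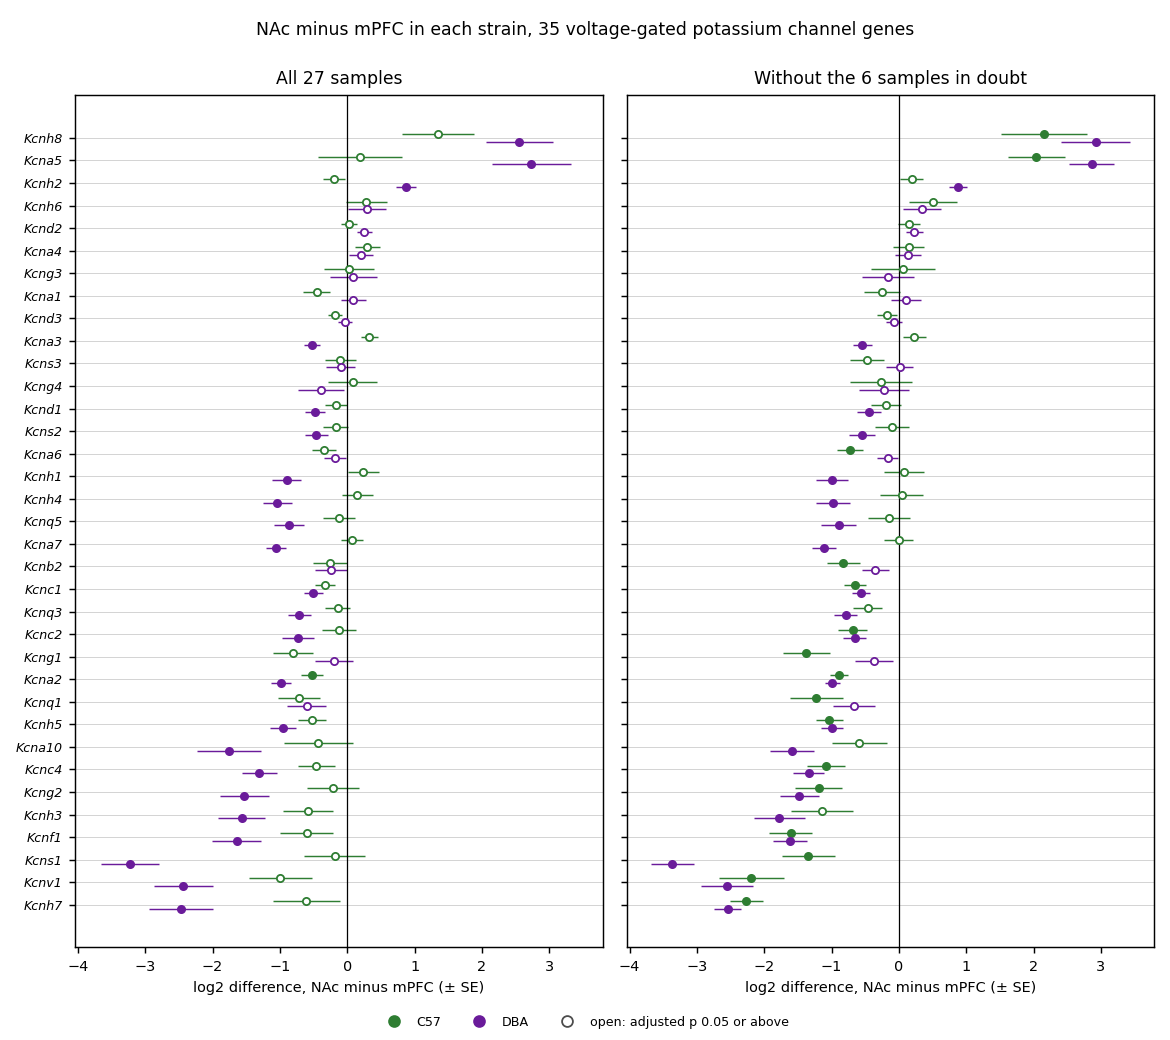
NAc minus mPFC log2 difference of 35 channel genes in C57 and in DBA, with bars of 1 standard error, over all 27 samples (left) and without the 6 samples in doubt (right), where filled points passed an adjusted p of 0.05. In C57, 1 gene is filled at left and 16 at right, and in DBA 23 are filled on both sides.

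Averaged over strains without the samples in doubt, 24 channel genes differed between tissues (54.9% of all features), of which 22 were also called with all samples and in the same direction. Kcnd1, Kcnh4 and Kcns2 were lost, and Kcna6 and Kcnb2 gained. An additive model took the slide as a random block, with 1 correlation between samples of a slide (0.27) shared by all features. In it Kcna2 (-0.75 ± 0.22, adjusted p = 0.0361) and Kcnv1 (-1.76 ± 0.57, adjusted p = 0.0480) were the 2 channel genes called, against 10.1% of all features. With 1 slide for each strain and tissue, slide still cannot be told apart from tissue in these calls.

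The tissue difference itself depended on strain for 8 of 38 channel genes (strain by tissue interaction), 6 more negative and 2 more positive in DBA. Of all features 31.4% passed, 21.5% more negative and 9.89% more positive. For Kcns1 the interaction was -3.04 ± 0.62 (adjusted p = 0.000878), from a difference of -3.23 ± 0.42 in DBA and -0.19 in C57. For Kcna7 it was -1.13 ± 0.22 (adjusted p = 0.000575), since the gene was lower in NAc in DBA (-1.06) and at 0.07 in C57. For Kcna3, a Kv1.3 subunit found in neurons and immune cells, it was -0.84 ± 0.17 (adjusted p = 0.000924), with -0.52 in DBA and 0.32 in C57. Kcnh2 went the other way (1.06 ± 0.22, adjusted p = 0.001): it was higher in NAc in DBA (0.87), where 8 NAc samples at -0.63 to 0.11 lay above 6 mPFC samples at -1.36 to -1.03, and at -0.19 in C57. Kcna5 (2.55), Kcnh1 (-1.14), Kcnh4 (-1.19) and Kcnh7 (-1.86) also passed. When the samples in doubt were left out, 4 of the 8 remained (18.8% of all features): Kcns1 (-2.02), Kcna7 (-1.10), Kcna3 (-0.77) and Kcnh2 (0.68). Kcnh7 moved to -0.28 and Kcna5 to 0.82. Kcns1 was then lower in NAc in C57 as well as in DBA.

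Between strains, averaged over tissue and treatment, 15 of 38 channel genes differed, 5 higher and 10 lower in DBA, or 39.5% against 45.1% of all features (24.5% higher and 20.6% lower). The higher genes were Kcna2, Kcna3, Kcnh1, Kcnh6 and Kcnq3, and the lower ones included Kcna4, Kcna7, Kcna10, Kcnb2, Kcnd1, Kcnd2, Kcng1, Kcng2 and Kcnh5. By family, 5 of 8 Kcna genes changed (2 higher, 3 lower), and 2 of 3 Kcnd genes and 2 of 9 silent subunit genes were lower. In the same contrast no striatal or cortical marker was called, 3 of 12 oligodendrocyte and 3 of 8 astrocyte markers were lower in DBA, 1 of 14 interneuron and 2 of 5 choroid plexus markers were lower, 1 of 8 microglia markers was higher and 3 lower, and 2 of 7 endothelial markers were higher and 3 lower. Their part in the channel differences was not tested.

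Kcna3 had the smallest adjusted p. It was at -2.37, -2.87 and -2.65 (in doubt) in C57 mPFC controls, at -2.86 (in doubt), -2.75, -2.61 and -2.36 in C57 mPFC RCF samples, at -2.37 (in doubt) and -2.52 in C57 NAc controls and at -2.09 (in doubt), -2.12, -2.21 and -2.33 in C57 NAc RCF samples. In DBA it was at -1.43, -1.45 and -1.62 (in doubt) in mPFC controls, at -1.52, -1.12 and -1.04 in mPFC RCF samples, at -1.62, -1.58, -1.96 and -1.77 (in doubt) in NAc controls and at -2.20, -2.03, -1.62 and -2.28 in NAc RCF samples. Every DBA mPFC sample was above every C57 mPFC sample, whereas the NAc samples overlapped. The difference was 0.85 ± 0.09 (adjusted p = 9.25e-08), with 1.27 in mPFC and 0.43 in NAc.

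Kcna4, which makes a fast A-type current, was lower in DBA: it was at 1.72 to 2.35 in DBA mPFC (median 2.24) against 2.02 to 3.33 in C57 mPFC (median 3.09), and at 2.01 to 2.69 in DBA NAc (median 2.33) against 2.39 to 4.34 in C57 NAc (median 2.90). Both tissues overlapped, and the difference was -0.88 ± 0.13 (adjusted p = 9.39e-06). Kcna2 was higher by 0.77 ± 0.11 (adjusted p = 9.44e-06), with 0.66 for its other probe. Its DBA mPFC samples (0.89 to 1.76) overlapped the C57 ones (-0.24 to 1.02) through DBA control 1, which is in doubt. Kcna7 was lower by 0.55 (-0.55 ± 0.11, adjusted p = 0.000351), with -1.11 in NAc and 0.02 in mPFC, and its other probe gave 0.39 (adjusted p = 0.0108), the opposite sign, and the mean of its probes -0.08 (adjusted p = 0.57).

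Kcna10 passed the test between strains as well (adjusted p = 0.000399), but its level lay near the background and the call was lost with another background correction (normexp, -0.38, adjusted p = 0.0697) and with the slide as a block (adjusted p = 0.158). It was at -7.46 to -4.16 in DBA mPFC (median -6.12) and at -5.69 to -3.30 in C57 mPFC (median -5.08), with overlap. In DBA NAc no array was well above background, so only a bound can be given there, against the lowest signal among probes well above background on each array. The C57 NAc controls, 3 of 4 arrays of which measured the probe and 1 of 2 samples of which is in doubt, were at least 3.60-fold higher than DBA NAc controls. The C57 NAc RCF samples, with 1 of 4 arrays well above background, gave no bound above 1 against either DBA NAc group.

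Of the Kcnh genes, Kcnh6, the ERG2 channel, was higher in DBA: it was at -4.70 to -3.91 in DBA mPFC (median -4.14) against -6.09 to -4.76 in C57 mPFC (median -5.82), with no overlap. In NAc it was at -5.06 to -3.26 in DBA (median -3.71) and -5.96 to -4.49 in C57 (median -5.13). The difference was 1.30 ± 0.21 (adjusted p = 2.84e-05), and another probe gave 0.47 (adjusted p = 0.0216). In C57 the Kcnh6 probe was well above background on only 1 or 2 arrays of each group, so the C57 levels lie near the background, and with normexp the difference fell to 0.26 and was not called (adjusted p = 0.244). Kcnh1, of the EAG branch, was higher by 0.74 ± 0.16 (adjusted p = 0.000535), chiefly from mPFC (1.31), where DBA samples at -0.66 to -0.29 lay above C57 samples at -2.20 to -0.90. In NAc the strains overlapped (0.17). Kcnh5 was lower by 0.72 (-0.72 ± 0.14, adjusted p = 0.000326), with -0.50 in mPFC and -0.93 in NAc.

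Kcng1, a silent subunit, was lower by 0.90 (-0.90 ± 0.20, adjusted p = 0.000981) and Kcng2 by 0.88 (-0.88 ± 0.27, adjusted p = 0.01). Their other probes gave 0.35 (adjusted p = 0.291) and 0.41 (adjusted p = 0.0184), and neither gene was called on the mean of its probes (-0.28 with adjusted p = 0.196, and -0.23 with adjusted p = 0.342). Kcng2 was also not called without the averaged C57 NAc controls 1 and 3, in doubt (-0.65, adjusted p = 0.0614). The medians of Kcng1 were 1.56 in C57 mPFC, 0.28 in DBA mPFC, 0.51 in C57 NAc and 0.24 in DBA NAc. Those of Kcng2 were 2.92, 2.19, 1.90 and 0.77 in the same order.

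Kcnd1 was lower by 0.39 (-0.39 ± 0.11, adjusted p = 0.00715), with medians of 0.90 in C57 mPFC, 0.60 in DBA mPFC, 0.72 in C57 NAc and 0.20 in DBA NAc. In NAc all DBA samples (-0.33 to 0.37) lay below all C57 samples (0.45 to 0.76), and in mPFC the strains overlapped. Kcnq3 (0.37), Kcnd2 (-0.24) and Kcnb2 (-0.50) were also called, with larger adjusted p than the genes above. Without the samples in doubt, Kcnd1 (-0.33, adjusted p = 0.0787), Kcnd2 (-0.24, adjusted p = 0.0704) and Kcnb2 (-0.40, adjusted p = 0.0519) were not called, nor was Kcnd1 with normexp (-0.26, adjusted p = 0.0705).

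**Figure D3:**
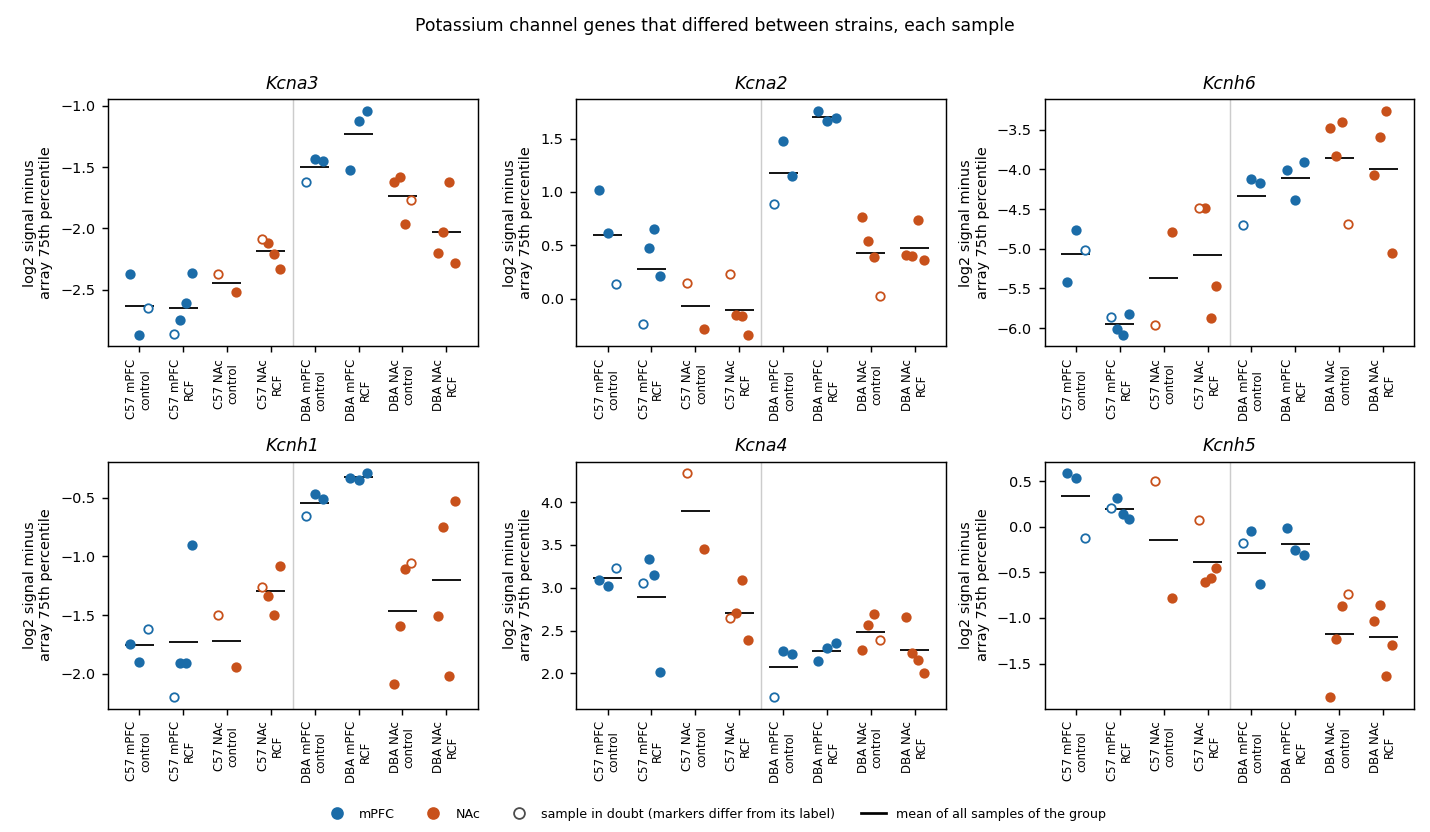
Log2 level (processed intensity over the array's 75th percentile) of Kcna3, Kcna2, Kcnh6, Kcnh1, Kcna4 and Kcnh5 in each of the 27 samples by group, where circles are samples, open circles the samples in doubt and bars the group means. The DBA mPFC samples of Kcna3 (-1.62 to -1.04) lie above the C57 mPFC samples (-2.87 to -2.36), and those of Kcnh6 (-4.70 to -3.91) above (-6.09 to -4.76).

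By tissue, 16 channel genes differed between strains in mPFC (9 higher and 7 lower) and 14 in NAc (4 higher and 10 lower). Of all features, 48.2% passed in mPFC, 29.1% higher and 19.1% lower, and 31.9% passed in NAc, 12.8% higher and 19.1% lower. Of the channel genes, 8 were called in both, 6 in the same direction, an overlap that was not counted over all features. Kcns1 was higher in DBA mPFC (1.55) and lower in DBA NAc (-1.48), and Kcnh2 was lower in mPFC (-0.41) and higher in NAc (0.65). Without the samples in doubt, 16 channel genes differed on average (41.5% of all features), of which 12 were also called with all samples, 14 in mPFC (43.9%) and 8 in NAc (23.5%). No gene was then called in opposite directions: Kcns1 was called in mPFC (1.21) and not in NAc (-0.81, adjusted p = 0.129), and Kcnh2 in neither (-0.26 and 0.42). The 7 called in both tissues in the same direction then included Kcna2, Kcna3, Kcna4, Kcna10, Kcnh5 and Kcnh6. With the slide as a random block, 4 stayed called against 11.7% of all features, among them Kcna3 (0.83, adjusted p = 0.00553), Kcna2 (0.79, adjusted p = 0.0210) and Kcnh6 (1.28, adjusted p = 0.0309).

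RCF changed no channel gene past the threshold, in the average or in any of the 4 combinations of strain and tissue. With limma, 0 of 38 passed in the average, where 0.00663% of all features did and 4 channel genes, among them Kcna4, Kcna7 and Kcnd2, had an unadjusted p under 0.05. In C57 NAc 0 of 38 passed against 0.593% of all features (0.0729% higher and 0.52% lower), with 3 at an unadjusted p under 0.05. In C57 mPFC, DBA mPFC and DBA NAc 0 of 38 passed against 0% of all features, with 3, 1 and 0 at an unadjusted p under 0.05. No interaction of RCF with strain or tissue passed for any channel gene or any feature, with 4 and 1 channel genes at an unadjusted p under 0.05.

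Kcna4 averaged -0.36 ± 0.13 (adjusted p = 0.528). In C57 NAc its controls were at 4.34 (averaged controls 1 and 3, in doubt) and 3.45 and its RCF samples at 2.65 (in doubt), 2.71, 3.09 and 2.39, a difference of -1.19 ± 0.28 (adjusted p = 0.0528). Kcna4 passed in this contrast under 7 other settings, with adjusted p from 0.00241 to 0.0447. The lowest, 0.00241 and 0.00356, came from settings that counted every array as a sample, including the arrays otherwise averaged. In the rest of the 7 the adjusted p ran from 0.0303 to 0.0447. The difference was -1.63 without the averaged controls 2 and 4 and -0.74 without the averaged controls 1 and 3, each of which left 1 control. With the samples in doubt left out, 1 control remained and the difference was -0.72 ± 0.37. In C57 mPFC Kcna4 was at 3.09, 3.02 and 3.23 (in doubt) in controls and 3.06 (in doubt), 3.33, 3.15 and 2.02 after RCF, with overlap. In that C57 NAc contrast the striatal marker list had a median difference of 1.09 and the cortical list of -0.84, and their part in the Kcna4 value was not tested.

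Kcnd2, the main A-type subunit of dendrites, averaged 0.21 ± 0.08 (adjusted p = 0.613). In C57 mPFC it was at 3.29, 3.39 and 3.63 (in doubt) in controls and 4.00 (in doubt), 3.49, 3.78 and 4.03 after RCF, overlapping at the control in doubt (0.39 ± 0.16, adjusted p = 1). In DBA mPFC, Kcna2 was at 1.48, 1.15 and 0.89 (in doubt) in controls and 1.76, 1.66 and 1.69 after RCF, above all controls (0.53 ± 0.23, adjusted p = 1). In DBA NAc the smallest p was that of Kcna3 (-0.30 ± 0.16, adjusted p = 1), whose groups overlapped. The groups hold 2 to 4 samples each, and these values do not show that RCF left the genes as they were.

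**Figure D4:**
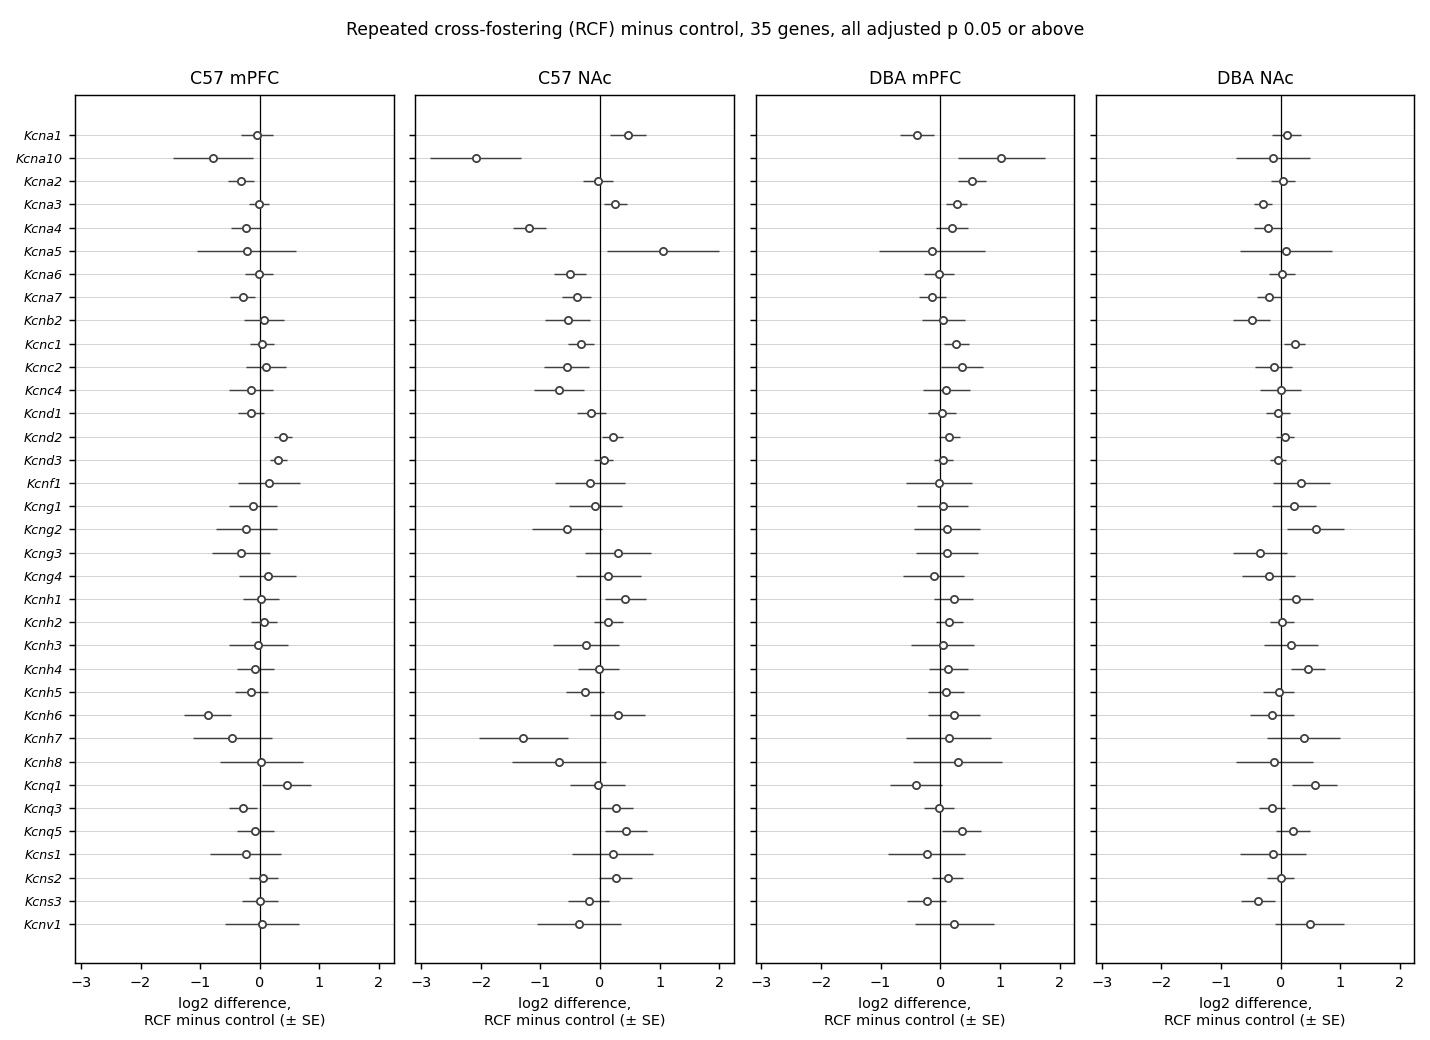
RCF minus control log2 difference of 35 channel genes with bars of 1 standard error in C57 mPFC, C57 NAc, DBA mPFC and DBA NAc. No point is filled, since none passed an adjusted p of 0.05, and in C57 NAc Kcna4 lies at -1.19 ± 0.28.

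Of the subunits that assemble with these channels, 16 of 18 were measured, and they split between tissues: 6 were higher in NAc and 4 lower (median 0.25), where 16.4% of all features were higher and 34.8% lower. Kcne2 (0.87), the dipeptidyl peptidase-like Kcnd partner Dpp6 (0.51), Cntn2 (0.47) and Cntnap2 (0.29), which hold Kcna channels beside the node of Ranvier, and the Kcnd-binding calcium sensors Kcnip1 (0.42) and Kcnip4 (0.26) were higher. Kcne3 (-1.17), Kcnip3 (-0.86), Dpp10 (-0.61) and the Kcnb partner Amigo1 (-0.24) were lower. Between strains 4 were higher in DBA, Kcnip2 (1.08), Kcnab2 (0.63), Kcnip1 (0.48) and Kcne3 (0.32), and 2 lower, Kcnip3 (-0.56) and Amigo1 (-0.36), against 45.1% of all features called. Without the samples in doubt 8 were higher and 5 lower in NAc (54.9% of all features called), and 3 higher and 2 lower in DBA (41.5%). No auxiliary subunit was called with RCF in the average.

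The other potassium channels, which here comprise inward rectifiers, 2-pore channels, calcium-activated channels and the HCN pacemakers, were measured for 41 of 42 symbols, among them the antisense RNA Kcnmb4os1. Between tissues 21 were lower and 6 higher in NAc (median -0.40, against 51.2% of all features called), with Kcnj3 at -1.47, Kcnj9 at -1.22, Kcnma1 at -0.95 and Kcnj5 at 2.38, and without the samples in doubt 23 were lower and 10 higher (54.9% of all features). Between strains 9 were higher and 4 lower in DBA, against 45.1% of all features, with Kcnj9 at 1.03 and Kcnk9 at 0.64. With RCF, Kcnj13 passed in C57 NAc (1.51, adjusted p = 0.0394, and adjusted p = 1 without the samples in doubt) and no other gene of this list passed in any RCF contrast. Of the non-coding RNAs named after channels, Kcnd3os was lower in NAc on average (-0.44, adjusted p = 0.00214). Its means in DBA (control and RCF) were -2.11 and -1.97 in mPFC and -2.94 and -2.9 in NAc. In C57 they were -2.68 and -2.54 in mPFC and -2.38 and -2.83 in NAc. Kcnq1ot1, the imprinted antisense transcript of Kcnq1, was lower in DBA (-0.58, adjusted p = 3.85e-06).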

How the data were processed

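Each array held Cy3-labelled RNA of 1 sample, made per the labels' protocols from 200 ng of RNA with an integrity number of at least 8.0. The deposited scanner files hold spot intensity values, which the authors obtained with Agilent Feature Extraction 10.7.3.1 per the file headers, and the processed intensity (gProcessedSignal) is already background-corrected there. The series' value table holds the authors' normalized log2 values, made with limma per the submitters' processing notes. Each scanner file was given the sample of the column it correlated with best.

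Log2 processed intensity minus the array's 75th percentile was computed for probes that were well above background on 3 or more arrays in some group, with control spots left out. Accessions were named through RefSeq, which matched 28026 of 55681 probes and 21154 symbols, and the brightest probe stands for a gene. Arrays of a group were averaged where the spread between them was below 2 times that of repeat spots (1.12 to 1.58 in the 4 pairs averaged, 3.16 in the next). No channel probe was saturated.

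A model of 8 group means was fitted to 27 samples with limma 3.58.1 (R 4.3.3), with an intensity trend, 14 contrasts, Benjamini-Hochberg adjustment over 30164 features and a threshold of 0.05. It was tested on simulated data. Values are log2 differences ± standard error. The same model without the 6 samples in doubt used 21.

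Some channel genes are in the counts but are not reported here by name. Each other measured channel gene is named at least once. Statistics are given in full for at most 12 called genes of the tissue and the strain contrast by adjusted p, for the 3 of smallest p in the averaged RCF contrast, for the 1 of smallest p in each RCF stratum and for at most 4 genes of an interaction. The channel genes, the lists of auxiliary subunits, other potassium channels and cell type markers, and these tests were chosen with earlier results of these data known. Alternatives were another background correction (normexp with offset 50 on the deposited median and background intensity), scaling, probe filter, probe summary, averaging, file assignment, weights, slide as a block, replicate number as a block and leaving out samples. The number of arrays limits the precision.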

Additional observations from a re-analysis of the deposited data

Results flagged for a closer look

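Among 22 named channel genes in the 4 groups of 4 samples, 88 sets of values were checked for a sample far from the other 3, and 7 were found, where chance gives about 1 in 20. C57 NAc RCF 1, a sample in doubt with cortical marker levels, stood apart in 3 genes: Kcns1 was at -1.49 (others -3.65 to -3.53), Kcnh7 at -1.68 (others -4.72 to -4.32) and Kcnf1 at 1.98 (others 0.35 to 0.58). DBA NAc control 4, with C57 strain marker levels, stood apart in Kcnf1 at 0.44 (others -0.67 to -0.51) and Kcnc1 at 1.59 (others 1.47 to 1.48). DBA NAc RCF 3 stood apart in Kcnh8 at -1.43 (others -3.32 to -3.11) and Kcna2 at 0.74 (others 0.36 to 0.41).

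The tissue difference in DBA differed from that in C57 by the interaction test in 8 of 38 channel genes. This is 21.1% of them, against 31.4% of all features. The difference of the differences was -3.04 for Kcns1, -1.86 for Kcnh7, -1.19 for Kcnh4, -1.14 for Kcnh1, -1.13 for Kcna7, -0.84 for Kcna3, 1.06 for Kcnh2 and 2.55 for Kcna5. Without the samples in doubt those of Kcns1, Kcna7, Kcna3 and Kcnh2 were called and the other 4 were not.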

How the results depend on the processing

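With the scanner files as listed with the samples, 0 channel genes were called between tissues (0 in C57, 0 in DBA) and 26 between strains. Of all features 0% and 55.4% passed. With RCF 18 channel genes were called (48.6% of all features). In C57 mPFC, C57 NAc, DBA mPFC and DBA NAc the RCF counts were 7 (28.1%), 10 (37.9%), 8 (21.2%) and 10 (18.6%). For strain by tissue 0 were called (0%) and for strain by treatment 12 (37.2%). That assignment also turned the sign of 12 values: the tissue differences of Kcnh8 (-0.041), Kcnv1 (0.10) and Kcnf1 (0.045), the strain differences of Kcna3 (-0.080), Kcna4 (0.25), Kcna2 (-0.77) and Kcnh1 (-0.32), the RCF differences of Kcnd2 (-0.25, and -0.27 in C57 mPFC) and Kcna3 in DBA NAc (0.48), and the interactions of Kcna7 (0.037) and Kcnh2 (-0.11). With the slide as a random block, 2 genes were called between tissues (10.1% of all features) and 4 between strains (11.7%). Without the samples in doubt the counts were 17 for tissue in C57, 8 for strain in NAc and 4 for strain by tissue. The C57 tissue count was 1 (10.1% of all features). It became 5 with every array a sample (18.4%), 3 with the replicate number as a block (17.4%) and 6 with array weights (19.6%). It became 0 with no intensity trend (9.46%), with quantile normalization (8.93%) or with the percentile over probes detected on all arrays (8.98%). The C57 NAc RCF count of 0 (0.593% of all features) became 2 with every array a sample (3.93%) or the replicate block (3.74%). It was also 2 with the filter on all arrays (0.975%), quantile normalization (0.998%) or the authors' values (0.979%). With array weights (0.428%) or normexp (0.613%) it was 1. Strain by tissue rose from 8 (31.4% of all features) to 13 with every array a sample (39.2%) and with the replicate block (39.3%). The other settings kept each count within 1.5 times. For tissue in C57, though, the authors' values gave 1 higher gene in place of 1 lower (12.3% of all features). The cause of these changes was not tested.

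Leaving out a sample at a time gave 17 to 25 genes for tissue, 0 to 6 for tissue in C57, 23 to 25 in DBA, 15 to 17 for strain, 12 to 18 in mPFC, 8 to 19 in NAc, 0 to 3 for RCF in C57 NAc, 6 to 14 for strain by tissue and 0 for the others. The 6 for C57 tissue and the 8 for strain in NAc came without the averaged C57 NAc controls 1 and 3, and the 3 for RCF in C57 NAc and the 14 for strain by tissue without the averaged controls 2 and 4. In both cases the C57 NAc control group is left with 1 sample, assumed to vary like the others. The leave-one-out counts are not set beside the share of all features, so they are not read as particular to channel genes. Over 105 pairs of same-numbered arrays of different groups, the correlation of their deviations ran from -0.639 to 0.663 (median 0.0143, 25 above 0.1). Many of these pairs join different strains or treatments, and some hold samples in doubt. They therefore cannot show whether the replicate numbers pair the samples.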
